A study of Mus musculus with 4 samples.

Results

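The genes described here lie around Trem2 on mouse chromosome 17 (GRCm38), within 5 Mb of either end of its body. GENCODE M21 places 211 gene bodies wholly inside this window. Left out by name were 13 of them: the Trem and Treml genes, the genes of mitochondrial ribosomal proteins (Mrpl and Mrps), Hsp90ab1, Vegfa and Tfeb. Of the 198 members that remained, 97 protein-coding, the count table held 89, and 76 of these (61 protein-coding) had enough reads to be tested, among 14239 genes tested in all. Another 13 members had too few reads for the test, and 109 were not in the table and were not analysed here. Position and name set the members, not a measured value, though earlier results of these data were known when they were chosen.

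RNA was sequenced from 2 libraries of wild-type (WT) and 2 of Trem2 mutant myeloid-derived suppressor cells (MDSCs), a mix of immature granulocytes and monocytes able to hold back T cell responses. Both genotypes carry the strain label C57BL/6. Per the labels, bone marrow precursors of WT or mutant mice were differentiated in culture and given to NRG males with tumours under the skin grown from TRAMP-C1 mouse prostate cancer cells. Recipients, an immunodeficient strain that lacks lymphocytes but keeps its own myeloid cells, were 6 weeks old at the challenge and got the cells 4 weeks later. After a further 6 h, CD45+, CD11B+, GR1+ cells were sorted from tumours digested for 45 minutes. That gate does not tell injected from recipient cells. The sources used here do not say what kind of Trem2 mutation it is, how the line was made and bred, or whether the libraries came from separate animals. The p-values therefore measure only the spread between these libraries, which may be technical.

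Trem2 encodes a surface receptor by which myeloid cells sense lipids, and it sits in a cluster of related immunoglobulin-type receptor genes. Genes that lie near a locus tend to be inherited with it, so an allele and its neighbours often pass together through a cross. The window also holds unrelated housekeeping and regulatory genes, from cyclin D3 (Ccnd3) and the serum response factor (Srf) to the chromatin organiser Satb1. They share a position and no common pathway.

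Trem2 itself (ENSMUSG00000023992, 48346401 to 48354147, plus strand) is no member and served to check the labels. It stood at 44.2 and 52.2 normalised counts (CPM, reads relative to the library's TMM-scaled total) in WT 1 and WT 2, and at 22.9 and 20.96 CPM in Trem2 mutant 1 and Trem2 mutant 3. Both mutant libraries lay below both WT libraries, with a log2 fold change of −1.14 (SE 0.125, edgeR quasi-likelihood test, adjusted p = 0.00157). Counts over a whole gene do not show which part of the transcript was read.

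Total counts ran from 8037733 to 8077966 reads in WT and from 9820893 to 10306674 in mutant libraries, of which the members took 0.337% to 0.338% and 0.254% to 0.289%. A single noncoding locus, Gm42418, took 13.9% of the reads of Trem2 mutant 1 and at most 1.04% of any other library. Of 6 tested markers of the sorted myeloid gate 4 rose and none fell (4340 to 4792 against 6994 to 8771 CPM summed): Itgam, Cd14 and the GR1 antigen genes Ly6g (6.44 ± 1.11 and 133 ± 14.6 CPM) and Ly6c2 (25.9 ± 1.43 and 330.3 ± 68.1 CPM). Csf1r, which was not called, lay the other way at 855 ± 13.0 and 702 ± 1.94 CPM. Ptprc (CD45), not called either, stood at 1138 ± 34.1 and 1346 ± 24.7 CPM and Itgam (CD11b) at 425.5 ± 8.21 and 648 ± 7.15 CPM (WT, then mutant; SD, n = 2 each). All 12 granulocyte markers rose in the mutant libraries, from a summed 4422 to 4696 CPM in WT to 24200 to 30110 CPM. All 5 tested eosinophil markers rose (71.3 to 72.5 against 158 to 197 CPM; 1 of 6 in the table was at 0 in both WT libraries), and so did 4 of 7 tested fibroblast and mural markers (178 to 232 against 490 to 527 CPM) and 2 of 3 erythroid markers (6.53 to 25.5 against 57.3 to 141 CPM). Of 2 tested epithelial markers 1 fell (153 to 161 against 84.8 to 87.6 CPM), none of 6 T and NK cell markers had enough reads to test, and of 5 sex-linked genes Xist rose and 4 Y-linked genes fell. Fewer cells of a type and less RNA per cell cannot be told apart in such libraries, and the part of these shifts in the results below was not tested. The sex-linked genes differed along with genotype, so sex of the cells and the mutation cannot be told apart here.

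Among the 76 tested members, 10 rose and 9 fell with the mutation label (adjusted p under 0.05 by edgeR's quasi-likelihood test), so 25% were called. Over all tested genes 13.2% were called: 9.55% rose, against 13.2% of the members, and 3.60% fell, against 11.8% of the members. The median log2 fold change was −0.04 for tested members and −0.02 for all tested genes, and the median size without sign was 0.29 and 0.26. On the rest of chromosome 17, 35 of 611 tested genes rose and 23 fell (9.49% called). In the next 5 Mb on each side, from 5 to 10 Mb away, 1 of 64 tested genes rose and 1 fell. Of the calls, 8 rises and 8 falls were in genes that reached the filter on low counts in both genotypes. Capn11 and Ptk7 reached it in the mutant libraries only and Gm20517 in the WT libraries only, so each was tested only through the genotype where it is high. A further 6 members reached it in the WT libraries only and were not called. These shares are descriptions, and no test set the members against other genes.

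**Figure D1:**
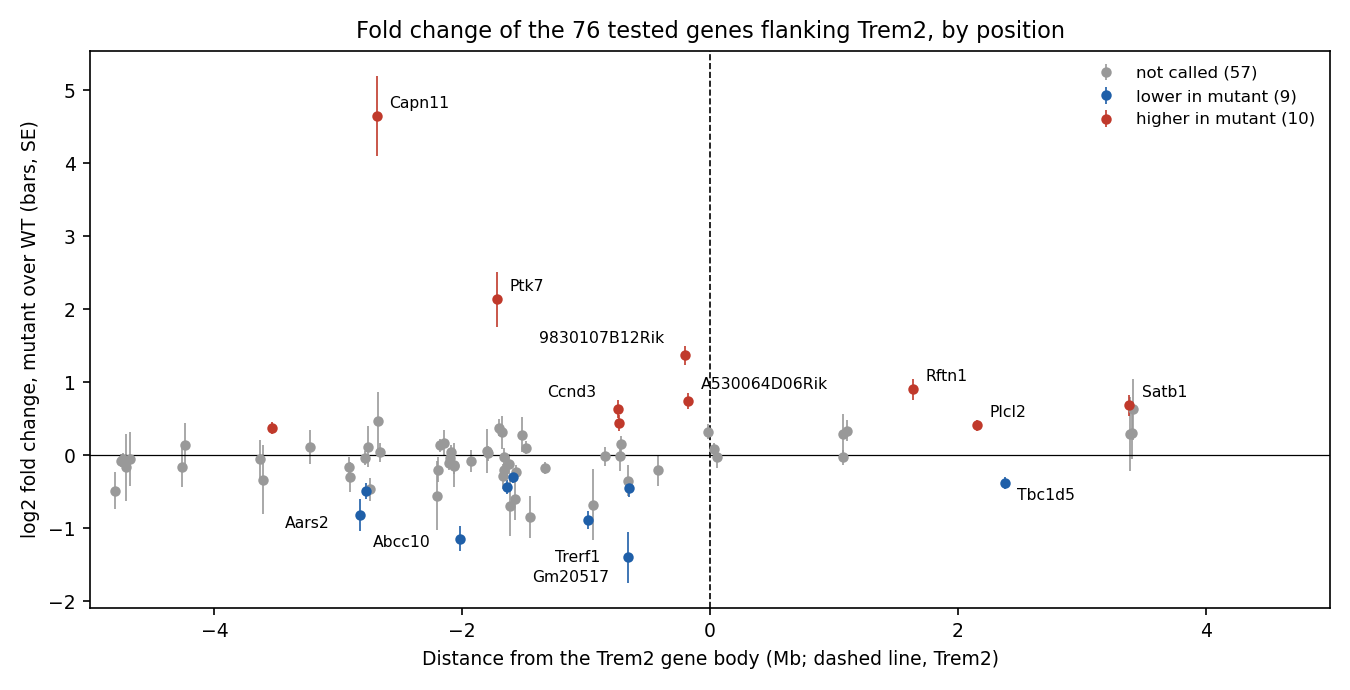
Log2 fold change (mutant over WT) of each of the 76 tested genes against its distance in Mb from the Trem2 body (negative, lower coordinates); points are edgeR estimates from 2 libraries per genotype and bars are SE. The 10 rises (red) and 9 falls (blue) are mixed along the window, and 15 of the 19 lie at lower coordinates than Trem2, where 64 of the 76 tested genes lie.

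Most tested members lie below Trem2 on the map. Of the 64 at lower coordinates, 7 rose and 8 fell, with a median log2 fold change of −0.08. Of the 12 at higher coordinates, 3 rose and 1 fell, with a median of 0.30. Of all tested genes, 9.55% rose and 3.60% fell. In steps of 1 Mb, the stretch next to Trem2 at lower coordinates held 14 tested members, of which 4 rose and 3 fell. Its rises include 9830107B12Rik and A530064D06Rik, which have Trem names as synonyms, as given below. Between 2 and 3 Mb below Trem2, 1 of 20 rose and 3 fell, and between 1 and 2 Mb below, 1 of 19 rose and 2 fell. None of the 7 tested members in the outermost step at lower coordinates was called, nor were the 2 in the first step at higher coordinates. The outermost step at higher coordinates held 6 annotated members and no tested one. Just outside the window, Tnfrsf21 (5.26 Mb below) had a log2 fold change of 0.35 (edgeR adjusted p = 0.0862) and Rab5a (5.13 Mb above) one of 0.22 (edgeR adjusted p = 0.142).

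**Figure D2:**
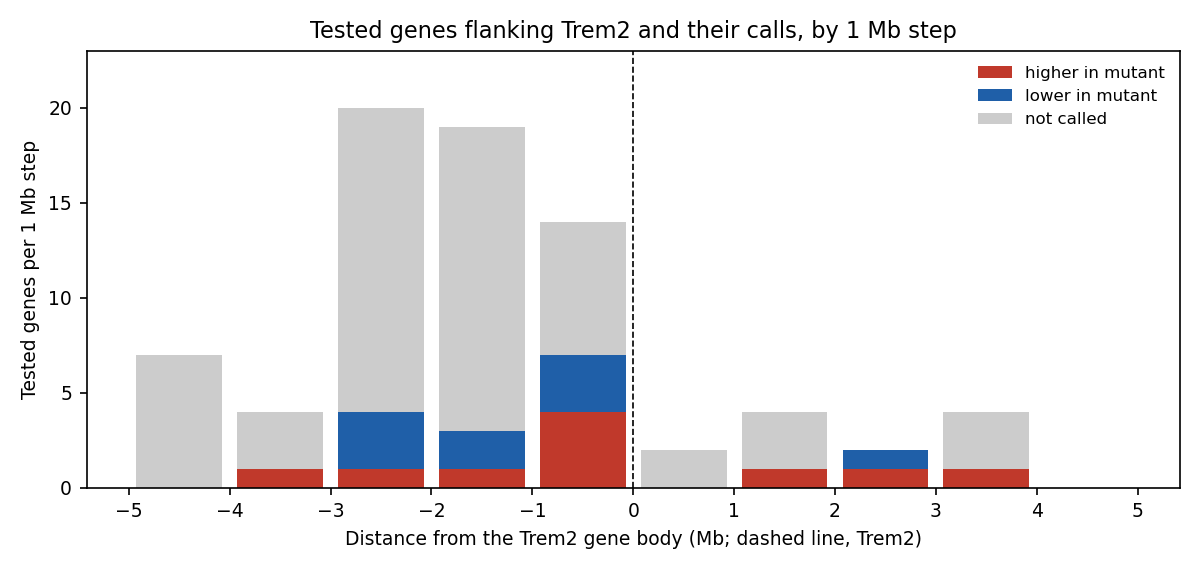
Number of tested genes flanking Trem2 in each 1 Mb step of distance (x axis) with those higher (red), lower (blue) and not called (grey) in mutant libraries. From far to near, the 3 steps next to Trem2 at lower coordinates hold 20, 19 and 14 tested genes with 4, 3 and 7 calls, while no step at higher coordinates holds more than 4 tested genes. Over all tested genes 13.2% were called.

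The nearest tested neighbours at lower coordinates belong to the receptor cluster. RefSeq lists Trem5 as another name of 9830107B12Rik, Trem4 of A530064D06Rik and Treml6 of B430306N03Rik; they were kept because the rule went by symbol. Their promoter windows (RefSeq, GRCm38.p6, 250 bases before to 50 after the transcript start) are shown because they are close copies of each other. Capitals mark aligned bases that differ from A530064D06Rik, and each line runs 5′ to 3′ on the gene's own strand. Bases that A530064D06Rik has and another copy lacks are not marked.
9830107B12Rik, chr17:48146258-48146557, minus strand: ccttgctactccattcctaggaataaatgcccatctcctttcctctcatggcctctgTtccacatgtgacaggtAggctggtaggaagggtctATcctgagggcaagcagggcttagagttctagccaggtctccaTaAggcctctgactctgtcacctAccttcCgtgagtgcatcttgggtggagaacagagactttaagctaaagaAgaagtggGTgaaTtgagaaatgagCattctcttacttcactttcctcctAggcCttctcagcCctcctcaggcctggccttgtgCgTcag
A530064D06Rik, chr17:48167208-48167507, minus strand: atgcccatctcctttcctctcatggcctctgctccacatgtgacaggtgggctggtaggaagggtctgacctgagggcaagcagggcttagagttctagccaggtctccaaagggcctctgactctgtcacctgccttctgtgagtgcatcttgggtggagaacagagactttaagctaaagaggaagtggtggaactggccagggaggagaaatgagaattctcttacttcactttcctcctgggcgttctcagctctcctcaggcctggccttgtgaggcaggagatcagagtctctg
B430306N03Rik, chr17:48315912-48316211, plus strand: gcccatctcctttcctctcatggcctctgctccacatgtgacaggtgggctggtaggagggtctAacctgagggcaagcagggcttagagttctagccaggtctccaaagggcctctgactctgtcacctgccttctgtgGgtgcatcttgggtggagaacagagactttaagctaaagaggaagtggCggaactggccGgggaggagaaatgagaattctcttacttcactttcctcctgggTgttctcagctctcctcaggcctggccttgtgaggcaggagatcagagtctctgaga
The windows of A530064D06Rik and B430306N03Rik were identical at 292 of 297 aligned bases (98.3%), and that of 9830107B12Rik matched A530064D06Rik at 256 of 274 (93.4%). Both shares leave out gaps, among them a short stretch of A530064D06Rik that 9830107B12Rik lacks. Of all 75-base stretches of their transcripts, A530064D06Rik shared 1.28% with 9830107B12Rik and 1.63% with B430306N03Rik, so a small part of their reads could have been split between copies.

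Both genes of this trio on the minus strand rose. 9830107B12Rik (ENSMUSG00000073386, 48125605 to 48146268, 200.1 kb below Trem2) stood at 14.3 and 16.1 CPM in WT 1 and WT 2 and at 40.9 and 37.5 CPM in Trem2 mutant 1 and Trem2 mutant 3. Every mutant library was well above every WT library, with a 2.58-fold rise (log2 fold change 1.37, SE 0.124, edgeR adjusted p = 6.57e-04). A530064D06Rik (ENSMUSG00000043939, 48149126 to 48167275, 179.1 kb below) had 31.6 and 32.0 CPM in the WT pair and 56.5 and 49.5 CPM in the mutant pair, a 1.67-fold rise (log2 fold change 0.74, SE 0.108, edgeR adjusted p = 0.00492). Its call was lost under scaling by library totals alone (log2 fold change 0.36). B430306N03Rik, 19.4 kb below Trem2 and the nearest tested member, had 184.6 and 219 CPM in the WT pair and 259 and 247 CPM in the mutant pair. Its groups did not overlap, but its log2 fold change of 0.32 did not pass (SE 0.101, edgeR adjusted p = 0.0729); it passed without Trem2 mutant 3 (0.38, adjusted p = 0.0237) and was −0.05 under scaling by library totals alone. Foxp4, a forkhead transcription factor gene 421.8 kb below, differed by −0.21 (edgeR adjusted p = 0.560).

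On the other side, neither of the nearest tested members passed the test. Nfya, which encodes the DNA-binding subunit A of the CCAAT-binding factor NF-Y, had 88.2 and 94.8 CPM in the WT pair and 95.5 and 98.9 CPM in the mutant pair (32.7 kb above Trem2). Its log2 fold change was 0.09 (SE 0.0814, edgeR adjusted p = 0.514). Oard1, an enzyme that removes ADP-ribose, had 16.2 and 14.5 CPM in the WT pair and 16.2 and 14.1 CPM in the mutant pair, so the groups overlapped (log2 fold change −0.02, edgeR adjusted p = 0.943). Nfya and Oard1 are transcribed away from each other from starts 108 bases apart. No further tested member lay within 1 Mb on this side.

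Between 0.6 and 1 Mb below Trem2, genes of opposite direction were neighbours. Ccnd3 encodes cyclin D3, a partner of the kinases that drive cells out of G1, and Bysl encodes bystin, a factor in making the small ribosomal subunit. Ccnd3 (ENSMUSG00000034165) stood at 201.9 and 191.5 CPM in WT 1 and WT 2 and at 346 and 264 CPM in Trem2 mutant 1 and Trem2 mutant 3. The mutant libraries were both higher but spread more widely than the WT pair (1.55-fold, log2 fold change 0.63, SE 0.128, edgeR adjusted p = 0.0179). Bysl (ENSMUSG00000023988) had 68.9 and 59.7 CPM in the WT pair and 93.1 and 81.1 CPM in the mutant pair, a 1.36-fold rise (log2 fold change 0.44, SE 0.108, edgeR adjusted p = 0.0372). Their 3′ exons overlap by 361 bases on opposite strands, and the sources used here do not say whether counting used strand. Neither gene passed without WT 1 (log2 fold changes 0.67 and 0.55), without WT 2 (0.59 and 0.34) or when scaled by library totals alone (0.25 and 0.06), and Bysl did not pass with DESeq2 (adjusted p = 0.0586).

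Bysl starts 90 bases from Med20, a Mediator subunit gene, and 97 bases from Gm20517, both transcribed the other way. The window around the Bysl start is shown because the 3 genes share it and their values differ in direction. Capitals mark the GC box (GGGCGG) and the core of the cAMP response element (TGACGT), on either strand.
Bysl, chr17:47611443-47611742, minus strand: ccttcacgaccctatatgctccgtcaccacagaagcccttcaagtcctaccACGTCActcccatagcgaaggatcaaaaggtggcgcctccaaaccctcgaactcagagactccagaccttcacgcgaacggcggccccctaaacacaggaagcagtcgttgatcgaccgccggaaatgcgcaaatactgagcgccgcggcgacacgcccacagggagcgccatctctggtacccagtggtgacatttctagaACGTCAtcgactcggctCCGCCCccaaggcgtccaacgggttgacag
Med20 had 36.1 and 43.2 CPM in the WT pair and 42.7 and 45.4 CPM in the mutant pair, so its groups overlapped (log2 fold change 0.15, edgeR adjusted p = 0.434). Gm20517 fell 2.63-fold, from 29 and 26 reads in WT to 9 and 11 reads in mutant libraries (log2 fold change −1.40, SE 0.348, edgeR adjusted p = 0.0381). Its call was lost when any 1 of the 4 libraries was left out (log2 fold changes −1.47 to −1.32) and with DESeq2, and it passed the filter on low counts through the WT libraries alone. Gm20517 shares 67.6% of its exon bases with Usp49, a histone H2B deubiquitinase gene, on the same strand, so reads of the pair cannot be assigned with certainty. Usp49 had 8.05 and 10.1 CPM in the WT pair and 6.71 and 7.52 CPM in the mutant pair, with no overlap but no call (log2 fold change −0.35, edgeR adjusted p = 0.316).

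Further genes of this stretch were lower. Trerf1, a zinc finger transcriptional regulator gene (ENSMUSG00000064043, 984.4 kb below Trem2), is typed in GENCODE M21 as a processed transcript and not as protein-coding. It stood at 39.7 and 46.2 CPM in the WT pair and 24.7 and 21.8 CPM in the mutant pair. It fell 1.85-fold (log2 fold change −0.89, SE 0.126, edgeR adjusted p = 0.00442), and stayed called with each library left out (−0.99 to −0.77) and under every other scaling, filter and tool run. Tomm6os, antisense to the gene of a mitochondrial import protein, had 54.7 and 51.3 CPM in the WT pair and 42.7 and 34.8 CPM in the mutant pair (1.37-fold lower, log2 fold change −0.46, SE 0.120, edgeR adjusted p = 0.0460). That call was lost without WT 1 (−0.41), WT 2 (−0.50) or Trem2 mutant 3 (−0.30), with RLE scaling and with DESeq2. The exons of Tomm6os overlap those of Prickle4, Gm21981, Tomm6 and Frs3. Taf8, a subunit of the general transcription factor TFIID, lies between Trerf1 and Ccnd3 and overlapped between groups (25.2 and 23.1 CPM in WT, 22.5 and 25.3 CPM in the mutant pair).

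From 1 to 3 Mb below Trem2, a dense stretch of mostly housekeeping genes, 5 members fell. That was 15% of the tested members from 2 to 3 Mb below and 10.5% from 1 to 2 Mb below. Of all tested genes 3.60% fell. Abcc10 encodes a multidrug efflux pump of the ABC family (ENSMUSG00000032842, 46303221 to 46328352, minus strand). It stood at 19.9 and 16.6 CPM in WT 1 and WT 2 and at 7.91 and 8.60 CPM in Trem2 mutant 1 and Trem2 mutant 3. The groups were well apart (2.21-fold lower, log2 fold change −1.14, SE 0.172, edgeR adjusted p = 0.00545), though without WT 1 the call was lost (−1.01, adjusted p = 0.0515). The window at its start is shown as that of the member with the largest fall among those above 5 CPM in WT. Its 3 capital runs are GC boxes.
Abcc10, chr17:46327974-46328273, minus strand: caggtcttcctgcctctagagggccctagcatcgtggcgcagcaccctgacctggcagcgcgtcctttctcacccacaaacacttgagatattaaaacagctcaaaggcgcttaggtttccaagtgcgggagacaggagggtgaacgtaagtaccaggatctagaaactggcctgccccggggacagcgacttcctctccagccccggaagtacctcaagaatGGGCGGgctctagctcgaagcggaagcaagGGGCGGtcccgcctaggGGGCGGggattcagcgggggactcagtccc
Aars2, the mitochondrial alanyl-tRNA synthetase gene, had 9.14 and 7.88 CPM in the WT pair and 4.55 and 5.05 CPM in the mutant pair, 1.77-fold lower (log2 fold change −0.82, SE 0.222, edgeR adjusted p = 0.0492). It lay at the threshold: the call was lost without WT 1 (−0.71), without WT 2 (−0.93), without Trem2 mutant 1 (−0.74), with RLE scaling (adjusted p = 0.0509), with no filter (adjusted p = 0.0502) and with DESeq2.

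The remaining falls of this stretch were small and tightly spaced between libraries. Slc35b2, which carries the sulfate donor PAPS into the Golgi, had 34.5 and 33.5 CPM in the WT pair and 23.4 and 24.9 CPM in the mutant pair (log2 fold change −0.49, SE 0.109, edgeR adjusted p = 0.0252). Ppp2r5d, a regulatory subunit of the phosphatase PP2A, had 62.6 and 56.3 CPM in the WT pair and 44.2 and 44.0 CPM in the mutant pair (−0.43, SE 0.0978, edgeR adjusted p = 0.0275). Cnpy3, a chaperone that folds Toll-like receptors in the endoplasmic reticulum, had 104.1 and 102.7 CPM in the WT pair and 82.4 and 85.3 CPM in the mutant pair (−0.30, SE 0.0773, edgeR adjusted p = 0.0416). In each of these genes both mutant libraries lay below both WT libraries. All 3 calls were lost without WT 1 (−0.47, −0.35 and −0.29), without WT 2 (−0.51, −0.51 and −0.31) and with DESeq2. That of Cnpy3 was lost as well without Trem2 mutant 1 (−0.27), with no filter and with limma-voom (adjusted p = 0.0503).

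The rises of this stretch were in genes with few reads. Capn11, a calpain-type protease gene known from testis, had 1 and 1 reads in WT and 28 and 26 in mutant libraries. The ratio of scaled reads was 28.0 (95% interval 7.39 to 237, counting error only; edgeR adjusted p = 0.00199), in a gene that entered the test through the mutant libraries alone. Ptk7, a catalytically inactive receptor kinase of Wnt and planar polarity signalling, had 6 and 8 reads in WT and 29 and 31 in mutant libraries (4.39-fold, log2 fold change 2.13, SE 0.372, edgeR adjusted p = 0.0102). Ptk7 too passed the filter through the mutant libraries alone, and its call was lost without WT 1 (1.94, adjusted p = 0.0942). Fibroblast and mural markers rose in the same libraries, as given above, and their part in the rise of Ptk7 was not tested.

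Many members of this stretch did not pass. Slc29a1, a nucleoside transporter gene, had 16.9 and 20.4 CPM in the WT pair and 12.8 and 14.1 CPM in the mutant pair (log2 fold change −0.47, edgeR adjusted p = 0.0945). Tbcc, a tubulin folding cofactor gene, had 13.6 and 9.41 CPM in the WT pair and 8.03 and 4.84 CPM in the mutant pair. Its log2 fold change of −0.85 was larger than that of Aars2 but less precise (SE 0.291, edgeR adjusted p = 0.0981), and it passed without Trem2 mutant 1 (−1.24, adjusted p = 0.0114). Klc4, a kinesin light chain gene, stood at 25.1 and 23.3 CPM in the WT pair and 33.3 and 29.7 CPM in the mutant pair (0.38, edgeR adjusted p = 0.0770), and it passed without Trem2 mutant 3 (0.48). Srf, whose product drives actin and immediate early genes, had 38.1 and 38.4 CPM in the WT pair and 40.9 and 37.3 CPM in the mutant pair, so the groups overlapped. Nfkbie, an inhibitor of NF-kB, overlapped too, at 157.8 and 178.9 CPM against 171.8 and 156.0 CPM.

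In the outermost 2 Mb at lower coordinates Runx2 was the one call. This Runt-domain factor (ENSMUSG00000039153, 44495987 to 44814797) is best known from bone formation. It stood at 61.4 and 58.8 CPM in the WT pair and at 76.4 and 78.8 CPM in the mutant pair, a 1.29-fold rise (log2 fold change 0.37, SE 0.0844, edgeR adjusted p = 0.0281). The WT and mutant pairs were each close together, yet the call was lost without WT 1 (0.40), without WT 2 (0.34) and with DESeq2 (0.39), and under scaling by library totals alone the value was −0.002. Its antisense genes Runx2os1 and Runx2os2 had 9 to 35 reads per library and log2 fold changes of −0.33 and −0.05, neither called. Pla2g7, which encodes the plasma enzyme that inactivates platelet-activating factor, had 449 and 458 CPM in the WT pair and 419 and 453 CPM in the mutant pair (−0.06, edgeR adjusted p = 0.707). Per kilobase of exon it was the most abundant member in WT, at 156.1 CPM per kb, ahead of Nfkbie at 55.3, Cnpy3 at 38.9, B430306N03Rik at 38.4 and 1700071M16Rik at 31.8.

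Beyond 1 Mb above Trem2, 4 of 10 tested members were called, beside 13.2% of all tested genes. With so few genes this share is a description only. Rftn1 encodes raftlin, a lipid raft protein of B cells and of Toll-like receptor uptake (ENSMUSG00000039316, 49992257 to 50190674, minus strand). It had 14.8 and 15.0 CPM in the WT pair and 30.7 and 25.2 CPM in the mutant pair. Both mutant libraries were well above the nearly equal WT pair (1.87-fold, log2 fold change 0.90, SE 0.143, edgeR adjusted p = 0.00682). Without WT 1 the call was lost by a small margin (0.89, adjusted p = 0.0530). The promoter window of Rftn1, the member with the largest rise on this side, is 70% G and C, and capitals again mark GC boxes.
Rftn1, chr17:50190448-50190747, minus strand: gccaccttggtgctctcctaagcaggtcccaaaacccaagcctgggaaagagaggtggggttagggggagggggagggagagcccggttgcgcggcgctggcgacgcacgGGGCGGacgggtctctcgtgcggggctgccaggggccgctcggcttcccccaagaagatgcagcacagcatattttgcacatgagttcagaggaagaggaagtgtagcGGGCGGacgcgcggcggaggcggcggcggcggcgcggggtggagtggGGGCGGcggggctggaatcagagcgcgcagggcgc
Satb1, which organises chromatin loops in lymphoid cells, had 17.7 and 22.9 CPM in the WT pair and 31.4 and 34.0 CPM in the mutant pair (1.61-fold, log2 fold change 0.69, SE 0.145, edgeR adjusted p = 0.0210). Its call was lost without WT 1 (0.51) and under scaling by library totals alone (0.32).

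Plcl2 and Tbc1d5 lie next to each other here and moved in opposite directions. Plcl2, an inactive relative of phospholipase C, had 84.9 and 80.2 CPM in the WT pair and 107.6 and 111.4 CPM in the mutant pair (log2 fold change 0.41, SE 0.0795, edgeR adjusted p = 0.0157). Tbc1d5, a Rab GTPase-activating protein of retromer traffic and autophagy, had 70.5 and 71.7 CPM in the WT pair and 53.3 and 56.0 CPM in the mutant pair (−0.38, SE 0.0864, edgeR adjusted p = 0.0279). Both calls were lost without WT 1 (0.45 and −0.39) and without WT 2 (0.37 and −0.37), that of Plcl2 under scaling by library totals alone (0.04) and that of Tbc1d5 with DESeq2 (adjusted p = 0.166). Mocs1, of molybdenum cofactor synthesis, had 67.0 and 70.5 CPM in the WT pair and 73.0 and 61.9 CPM in the mutant pair, with the WT pair inside the mutant range, and Gm20540 beside it was at 0.29 without a call. Daam2, a formin of Wnt signalling, had 15.2 and 16.1 CPM in the WT pair and 21.3 and 18.3 CPM in the mutant pair (0.34, edgeR adjusted p = 0.163).

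**Figure D3:**
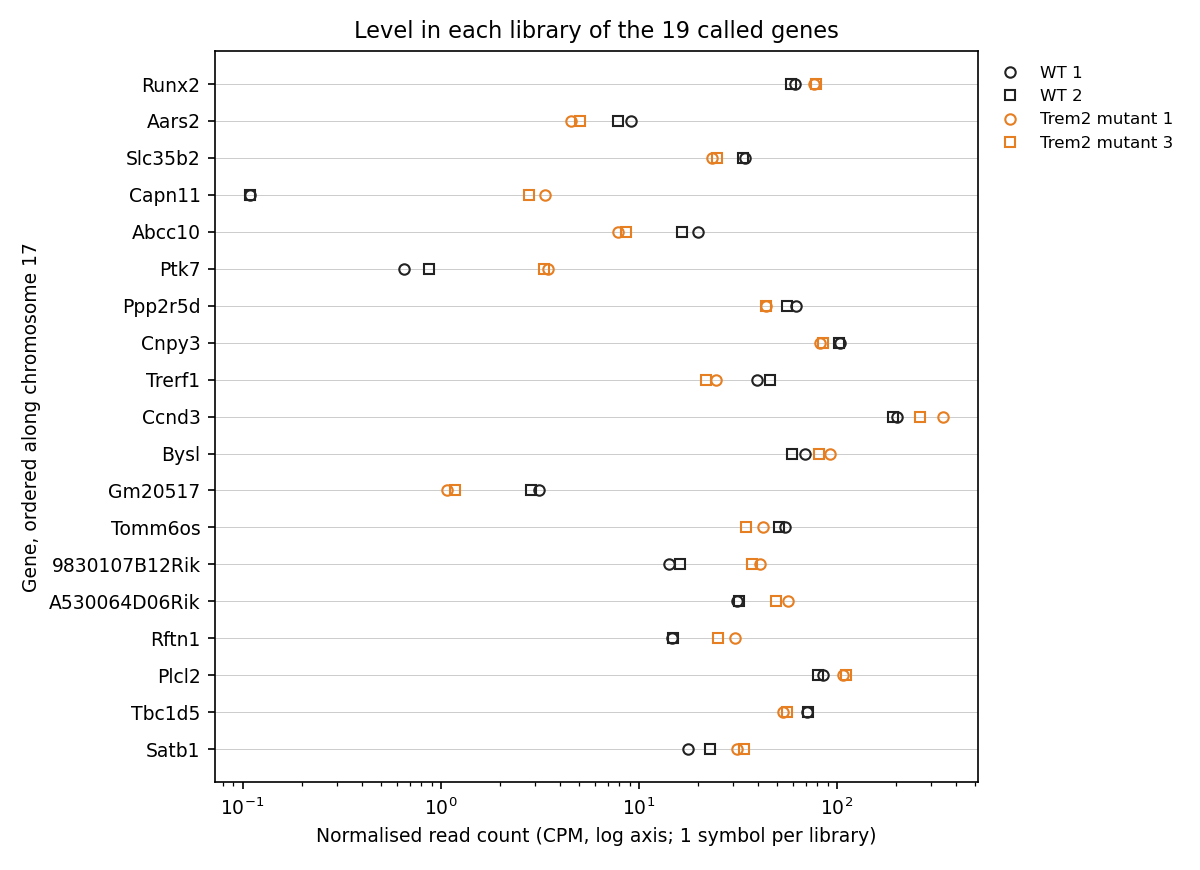
Normalised read count (CPM, log axis) of the 19 called genes in each library, 1 symbol per library, in map order from low to high coordinates (WT black, Trem2 mutant orange). In each of the 19 genes the 2 mutant symbols lie on 1 side of the 2 WT symbols, from about 0.109 CPM for Capn11 in WT to 346 CPM for Ccnd3 in Trem2 mutant 1. The genes were picked by their call on these same libraries, so this separation adds no support. Uncalled members such as Nfya and Xpo5 show it too, and its share over all tested genes is not given here.

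Grouped by role, called members were spread over most lists, and in no list were all tested members called. Of 12 tested genes of transcription and chromatin, Runx2 and Satb1 rose and Trerf1 fell (median log2 fold change 0.01). Of 7 of cell cycle and DNA maintenance, Ccnd3 rose and none fell (median 0.06), with the cullin gene Cul7 at 0.32, Cdc5l, a splicing and mitosis gene, at −0.16 and Mad2l1bp, of the spindle checkpoint, at −0.20. Of 7 of RNA, ribosome and translation, Bysl rose and Aars2 fell (median −0.11), while Rpl7l1, a relative of a ribosomal protein gene, was at −0.23, Gtpbp2, of ribosome rescue, at 0.14 and Xpo5, which exports microRNA precursors, at −0.10 (36.99 and 37.3 against 33.2 and 35.9 CPM). Of 6 of the ubiquitin system and protein folding, Cnpy3 fell and none rose (median −0.24), and Ubr2, an N-end rule ubiquitin ligase gene, was at −0.17. Both falls among 4 tested membrane transport genes, Abcc10 and Slc35b2, have been given, and the list's median was −0.48 with Tmem63b, a mechanosensitive channel gene, at 0.04. Of 9 of organelles and metabolism, Capn11 rose and Tbc1d5 fell (median −0.03), while Pex6, of peroxisome import, was at −0.12 and Gnmt, of methionine metabolism, at −0.69 with few reads. Among 7 immune and signalling genes Ptk7, Rftn1 and Plcl2 rose and Ppp2r5d fell (median 0.34). Neither of 2 tested genes of adhesion, cilia and cytoskeleton was called (Klc4, and Rsph9 of cilia at −0.56). Against these counts stand the 9.55% of all tested genes that rose and 3.60% that fell; with 2 to 12 genes each, the lists carry no test.

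Promoter windows were at hand for 59 of the 76 tested members, 84 windows in all. A GC box (GGGCGG, either strand) was found in 58 of the 84 (69%) and in 35.7% of all 32851 mouse windows of this length. The cAMP response element core (TGACGT) was found in 17.9% against 7.51%, the E-box CACGTG in 9.52% against 7.15%, and CCAAT, the sequence bound by NF-Y, in 28.6% against 37.4%. In the 27 windows of called members these shares were 55.6%, 22.2%, 11.1% and 33.3%. All mouse windows include those of noncoding and predicted genes, and a match of letters does not show that a factor binds. For pairs on opposite strands, starts were taken as the outer ends of the GENCODE gene bodies, and other starts of a gene were not compared. Klhdc3 and Mea1, whose RefSeq windows overlap, are thus not listed. By that measure starts lay within 1000 bases of each other in 7 pairs of tested members. They were Bysl with Gm20517 and with Med20, Nfya with Oard1, Polr1c with Yipf3, and Polh with Xpo5. The last 2 were Cdc5l with B230354K17Rik and Gm20540 with Mocs1, whose transcripts overlap at their starts. The first pair had both genes called, in opposite directions, and in the second Bysl alone was called. Exons of 26 of the 76 tested members, 9 of the 19 called, overlap those of another annotated gene.

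Of the 19 calls, 3 (Capn11, Trerf1 and 9830107B12Rik) held in all 12 alternatives run on scaling, filter, tool and left-out library, and A530064D06Rik held with each library left out. For Capn11 this adds no support, since the gene was tested only through the libraries where it is high. Without WT 1, 3 members rose and 1 fell, and without WT 2, 6 rose and 2 fell, while over all genes the called shares also dropped, to 3.25% higher and 0.612% lower without WT 1 and to 4.80% and 0.861% without WT 2. Under scaling by library totals alone, which lowered the median of all genes to −0.40, 4 members rose and 28 fell, beside 4.56% and 30.7% of all tested genes.

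**Figure D4:**
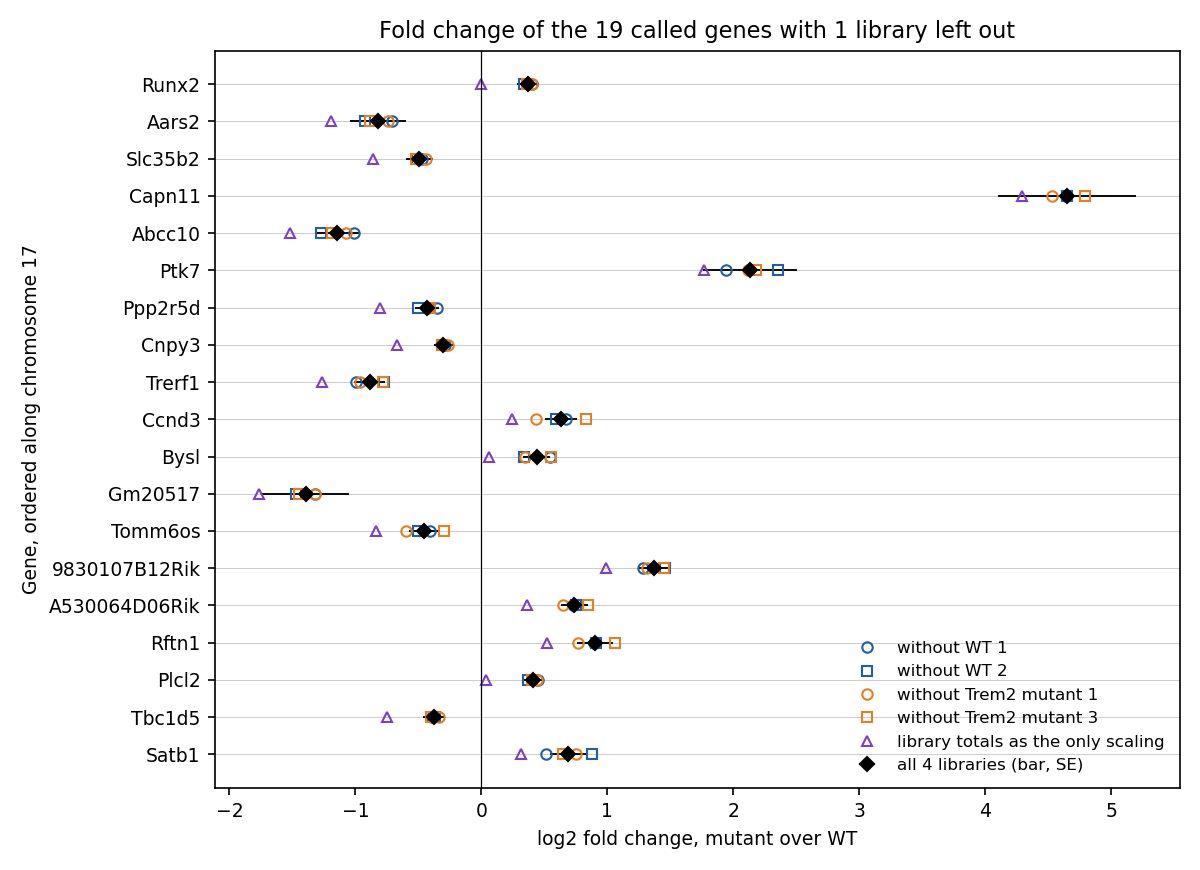
Log2 fold change (x axis, mutant over WT) of the 19 called genes from all 4 libraries (diamonds, bars SE) and with each library left out (open symbols), and under scaling by library totals alone (triangles). Left-out estimates keep their sign in all 19 genes, while the triangles are shifted down in each gene and reach −0.002 for Runx2.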

How the data were processed

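The authors deposited raw read counts, 1 row per Ensembl gene. The tools in the submitters' processing notes are STAR 2.5.2a, FastQC and DESeq2, and the build there is GRCm38 (mm10). Their read counter, strand setting or annotation release was not given in the sources used here. In the table were 17476 genes, none with fewer than 11 reads in all, and 17422 matched GENCODE M21, which gave names and positions. WT columns are numbered 1 and 2 and mutant columns 1 and 3. As no label has a 3, the second mutant column was placed in its group by name only. Libraries of a genotype were kept apart, since they differed beyond counting noise (median squared difference over noise 2.15 in WT, 8.43 in mutant).

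Counts were fitted with edgeR 4.0.16 (R 4.3.3): filterByExpr, TMM, glmQLFit and glmQLFTest, two-sided, genotype as the only term, Benjamini-Hochberg adjustment over 14239 genes at 0.05. Residual degrees of freedom were 2 and prior ones 5.71. The test was tried on simulated data, but the outcome is not given here and no call rests on it. SE is the log2 fold change over the root of F. Alternatives used DESeq2 1.42.0, limma 3.58.1, other scalings and filters, other windows and left-out libraries. Named were Trem2, called members, the 5 nearest tested members on each side, the 5 with the most reads per kb, and up to 4 per role list with the lowest p. Beside them, Med20, Taf8, Srf, Xpo5, the genes just outside the window, Runx2os1 and Runx2os2 were picked after their values were seen. The members and lists were chosen with earlier results of these data known. Intervals (95%) cover counting error.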

Additional observations from a re-analysis of the deposited data

How the results depend on the processing

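The counts of 10 rises and 9 falls were within 1.5 times of these values with RLE and upper-quartile scaling, with no filter or a stricter one, with limma-voom, with the bias-adjusted quasi-likelihood form (chosen after the data were seen), with protein-coding nuclear genes as the library total, and among protein-coding members. Within 10 Mb of Trem2, 11 of 140 tested genes rose and 10 fell, beside 9.55% and 3.60% of all tested genes. That set holds all the members, so its counts could not have been lower than theirs. Leaving out members with a Trem or Treml synonym, chosen after the data were seen, gave 8 and 9. Under scaling by library totals alone 4 members rose and 28 fell (4.56% and 30.7% of all genes), and Runx2 turned from 0.37 to −0.002. With DESeq2, 8 rose and 2 fell (7.47% and 1.39% of all genes). With 1 library left out, rises ranged from 3 to 12 and falls from 1 to 9; the lone library of a group was then taken to vary like the other group. Over all tested genes, the shares that rose and fell were smaller without either WT library and larger without either mutant library. The ranges with 1 library left out are thus not to be set against 9.55% and 3.60%. Among tested gene bodies wholly within 1 Mb of Trem2, 4 of 15 rose and 2 fell, and within 2 Mb 6 of 39 rose and 5 fell. Among members with no exon overlap, 6 of 50 rose and 4 fell. Beside each of these stand the same 9.55% and 3.60% of all tested genes, and each set held fewer genes. No paired analysis was possible because the columns of the 2 genotypes share 1 number. With 2 libraries per genotype, the precision rests largely on spread shared between genes, and 3 reads correspond to 0.322 to 0.359 CPM.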
